A study of Rattus norvegicus with 6 samples.

Results

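The miR-30 family is a set of small regulatory RNAs that share the bases with which a microRNA (miRNA) finds its messenger RNA targets. The family was picked for description with earlier results of these data known. Its guide strands rno-miR-30a, rno-miR-30b-5p, rno-miR-30c, rno-miR-30d and rno-miR-30e were then taken by name. They make up 5 of the 677 rat miRNAs on the array. Plasma RNA came from 6 male Wistar rats, 1 Agilent 1-colour array per animal. Each of 3 animals received 0.9% (v/v) saline into the peritoneum, and each of the other 3 received 100 mg/kg Thioacetamide dissolved in the same saline by the same route. All 6 were killed 24 h after dosing. The labels give no age, and starting body weights were 393 to 426 g in the vehicle group and 413 to 428 g in the thioacetamide group.

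A miRNA is cut from a hairpin precursor as a short duplex. The guide strand is loaded into an Argonaute protein, and the passenger strand (marked * or 3p here) is mostly degraded. Bases 2 to 8 of the guide, the seed, pair with target messages. The miR-30 guides are abundant in many tissues, hepatocytes among them, and are known for restraining epithelial-to-mesenchymal transition, autophagy and fibrotic signalling. Thioacetamide is turned into reactive metabolites by liver enzymes and kills hepatocytes, which lets miRNAs of those cells reach the blood. In cell-free plasma, release from more cells and release of more RNA per cell cannot be told apart.

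The mature sequences are shown because all members share the seed and some differ elsewhere by a single base, which bears on how well the probes tell them apart. The RefSeq miRNA table of the assembly GRCr8 held 3 of the 5 members by name. It also held miR-384-5p, the other of 4 rat miRNAs in that table with the same seed. The sequences run 5′ to 3′ with the seed in capitals.

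miR-30a: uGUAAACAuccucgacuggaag
miR-30e: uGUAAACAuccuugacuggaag
miR-30c: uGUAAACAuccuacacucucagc
miR-384-5p: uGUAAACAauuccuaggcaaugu

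The first 12 bases were the same in miR-30a, miR-30c and miR-30e. miR-30a and miR-30e are both 22 bases long and differ by 1 substitution, C13U, counted from the 5′ end with the base of miR-30a first. miR-30c is 23 bases long and departs from both over its 3′ part. miR-384-5p leaves the family's sequence straight after the seed.

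The array reads each member with 2 probes of 10 spots each, which differ in length by 1 base. The probes of miR-30a and miR-30e are shown because they differ by 1 base where they cover the same positions. They reach from the 3′ end of the guide into the last bases of the seed. They run 5′ to 3′, and the capital marks the base opposite position 13 of miR-30a or miR-30e.

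miR-30a, shorter probe: cttccagtcGaggat
miR-30a, longer probe: cttccagtcGaggatg
miR-30e, shorter probe: cttccagtcAaggatg
miR-30e, longer probe: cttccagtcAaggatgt

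The 15-base miR-30a probe covers bases 8 to 22 and the 16-base probe bases 7 to 22. The miR-30e probes cover bases 7 to 22 and 6 to 22. Laid on miR-30e without gaps, each miR-30a probe has 1 mismatch, a G-U wobble. Each miR-30e probe has 1 mismatch to miR-30a, which is not a wobble. The miR-30d probes are the shortest, at 13 and 14 bases, and have 1 mismatch to miR-30a, a wobble, and 2 to miR-30e. The 17-base and 18-base miR-30c probes have 6 mismatches to miR-30a and to miR-30e, and the miR-30b-5p probes have 4 to miR-30c. How much of a member's signal came from its relatives was not tested.

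In GRCr8 the precursor Mir30a lies at chr9:33233941-33234011 on the plus strand. The gene Mir30c2 lies 19670 bases downstream of it at chr9:33253682-33253765, within the spans of a long non-coding RNA and of the pseudogene Rbx1-ps1. Mir30e lies at chr5:139637450-139637541 on the minus strand, and 2906 bases from it lies Mir30c1 at chr5:139634455-139634543. Both are within the span of Nfyc, a protein-coding gene for a subunit of a CCAAT-binding transcription factor. The same mature miR-30c is made from Mir30c1 and Mir30c2, so the miR-30c signal cannot be divided between them.

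The 3 arrays of slide columns 1 and 2 (vehicle 2, vehicle 3 and thioacetamide 1) differed from the 3 of columns 3 and 4 (vehicle 1, thioacetamide 2 and thioacetamide 3). A miRNA counted as detected where the scanner software put over 50% of the unmarked spots of any of its probes well above background. On columns 1 and 2, 16 to 27 miRNAs were detected, against 62 to 83 on columns 3 and 4. The lowest probe signal well above background was 136 to 445 on columns 1 and 2 and 19.6 to 46.4 on columns 3 and 4. All 5 members were detected on vehicle 1, thioacetamide 2 and thioacetamide 3, 2 on thioacetamide 1 and 0 on vehicle 2 and vehicle 3. Each member was therefore detected on 1 of 3 vehicle arrays, and its signals on the other 2 were not well above background.

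miR-30a and miR-30d were higher in plasma after thioacetamide, miR-30b-5p was higher on every treated array but did not pass the test, and miR-30e and miR-30c showed small differences that did not pass. Signals below are sums over a member's 2 probes, divided by an array scale factor, in arbitrary units. Changes are in log2, fitted with limma on the 59 miRNAs detected on at least 3 arrays, with Benjamini-Hochberg adjusted p-values over those 59 and a threshold of 0.05. Each member was detected on 1 vehicle array and on 2 or 3 treated arrays, so it met that filter only through the treated group. The counts that follow describe the members beside miRNAs under the same filter and are no test of the family. Of the members, 2 of 5 passed as higher, where 15.3% of the tested miRNAs did, and 0 of 5 as lower, where 1.69% did. On scaled signals 4 of 5 members had groups that did not overlap, thioacetamide higher, against 27.1% of tested miRNAs, and 0 of 5 had non-overlapping groups with thioacetamide lower, against 10.2%. All 5 fitted changes were above 0, as were 59.3% of all changes. At an unadjusted limma p under 0.05, 3 of 5 members were higher, against 27.1% of tested miRNAs. The median change was 1.97 over the members and 0.45 over the 59 tested miRNAs.

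**Figure D1:**
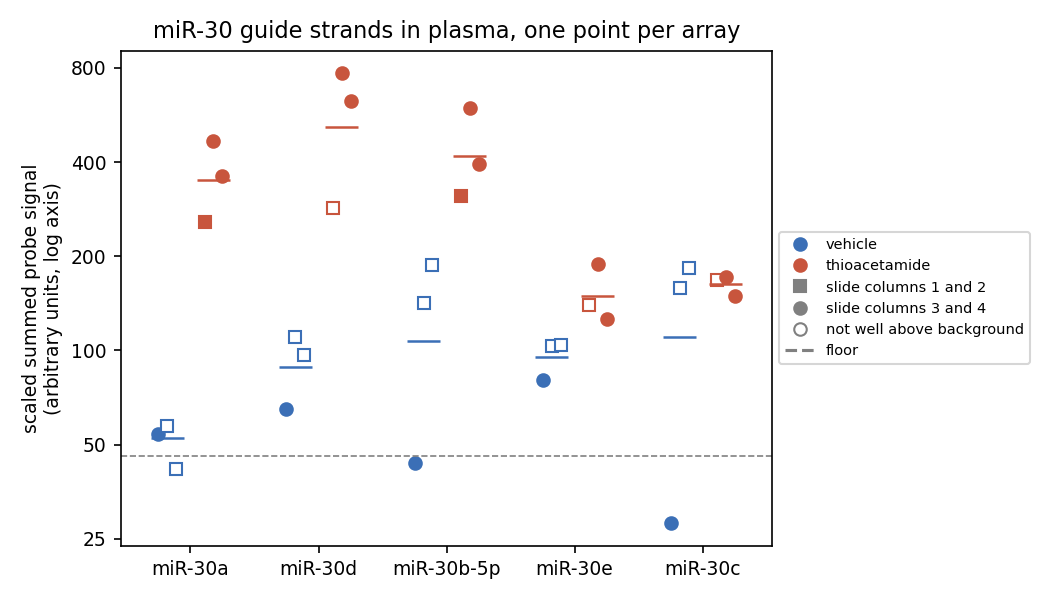
Scaled summed probe signal of each miR-30 guide strand (log axis, arbitrary units), 1 point per array, with squares for slide columns 1 and 2, circles for columns 3 and 4 and open symbols for arrays where the miRNA was not well above background; bars are means of log2 values after the floor, and the dashed line is the floor of 46.1. The treated arrays lie clear of the vehicle arrays for miR-30a and miR-30d, and miR-30c overlaps.

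miR-30a, made from the chromosome 9 precursor, had scaled signals of 54.2, 57.5 and 41.9 on vehicle 1 to 3 and 257, 468 and 360 on thioacetamide 1 to 3. Every treated array was above every vehicle array, and the lowest treated value was 4.47 times the highest vehicle value. The vehicle 3 value was below the floor of 46.1, to which low signals are raised before the log. The mean log2 signal was 5.71 ± 0.17 in vehicle and 8.46 ± 0.43 in thioacetamide plasma (SD, n = 3 each). The change was 2.75 ± 0.38 (SE), a 6.71-fold rise (limma, adjusted p = 0.00289). It ranked 7 of 59 by size of change. The vehicle mean lies close to the floor, so this fold depends on where the floor is set. With a floor 4 times as high the change was 0.93 (limma, adjusted p = 0.0660), and with the background corrected by normexp it was 0.96 (limma, adjusted p = 0.108). The normexp setting also added an offset of 50 to each spot, and an added constant makes log2 changes of low signals smaller.

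miR-30d had scaled signals of 65.2, 111 and 96.5 on vehicle 1 to 3 and 285, 770 and 628 on thioacetamide 1 to 3. The groups did not overlap, and within the treated group the array of slide columns 1 and 2 was the low one. The mean log2 signal went from 6.47 ± 0.40 to 9.01 ± 0.76 (SD, n = 3 each). The change of 2.54 ± 0.50 (SE), or 5.82-fold, passed the test (limma, adjusted p = 0.0134) and ranked 8 of 59. This call was lost on leaving out any of 4 arrays: the change was 2.32 without vehicle 1 (limma, adjusted p = 0.0511), 2.60 without vehicle 3 (0.0556), 2.25 without thioacetamide 2 (0.0654) and 2.40 without thioacetamide 3 (0.0653). Like that of miR-30a, it was also lost with the higher floor (1.49, 0.0841) and with normexp (1.24, 0.0766).

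Both calls were lost when arrays were scaled by the percentile over all miRNA probes, most of which lie at background (1.60 for miR-30a, limma, adjusted p = 0.370, and 2.06 for miR-30d, 0.297). Without a filter on detection, 677 miRNAs entered the adjustment, and the adjusted p was 0.0527 for miR-30a and 0.302 for miR-30d (limma) at the same changes.

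miR-30b-5p had scaled signals of 43.8, 142 and 188 on vehicle 1 to 3 and 312, 596 and 394 on thioacetamide 1 to 3. The groups did not overlap, and vehicle 1, the vehicle array on which it was detected, was the low one and lay below the floor. The mean log2 signal was 6.74 ± 1.07 in vehicle and 8.71 ± 0.47 in thioacetamide plasma (SD, n = 3 each). The change of 1.97 ± 0.62 (SE), or 3.91-fold, missed the threshold (limma, adjusted p = 0.0686). Among the alternatives that moved it past the threshold were a block for the side of the slide (2.16, limma, adjusted p = 0.0476) and its longer probe alone, an alternative added after seeing the data (2.12, limma, adjusted p = 0.0328).

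miR-30e, which differs from miR-30a by the single base above, had scaled signals of 80.3, 103 and 104 on vehicle 1 to 3 and 140, 189 and 126 on thioacetamide 1 to 3. Its groups did not overlap, but the lowest treated value was only 1.21 times the highest vehicle value. The mean log2 signal was 6.57 ± 0.21 in vehicle and 7.22 ± 0.30 in thioacetamide plasma (SD, n = 3 each). The change of 0.65 ± 0.35 (SE), or 1.57-fold, did not pass (limma, adjusted p = 0.220).

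miR-30c had scaled signals of 28.1, 158 and 183 on vehicle 1 to 3 and 169, 172 and 149 on thioacetamide 1 to 3. The treated values lay between or beside those of vehicle 2 and vehicle 3, and only vehicle 1 was low. The mean log2 signal was 6.78 ± 1.09 in vehicle and 7.35 ± 0.11 in thioacetamide plasma (SD, n = 3 each). The change of 0.57 ± 0.59 (SE) did not pass (limma, adjusted p = 0.523). Its sign rests on vehicle 1, since without that array the change was -0.06. Vehicle 1 was the only vehicle array on which miR-30c was detected, and its value there lay below the floor. The signals on vehicle 2, vehicle 3 and thioacetamide 1 were not well above background.

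**Figure D2:**
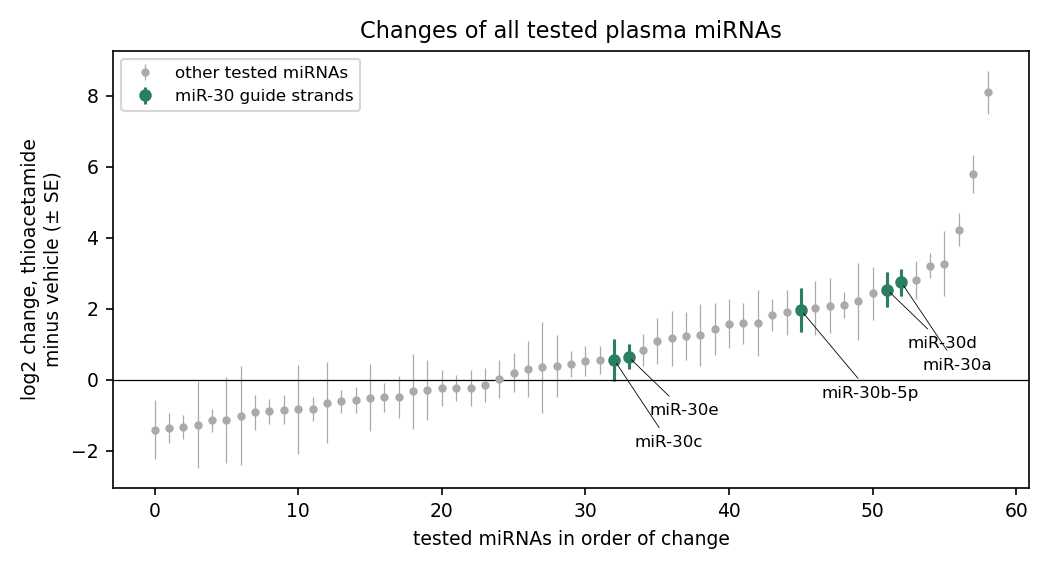
Log2 change (thioacetamide minus vehicle, points, with bars of ± 1 SE from limma) of the 59 tested miRNAs in order of change, with the 5 miR-30 guide strands in green. miR-30a (2.75) and miR-30d (2.54) lie near the upper end, miR-30b-5p (1.97) below them, and miR-30e (0.65) and miR-30c (0.57) near the median of 0.45.

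Before scaling, the 5 members were higher on every treated array than on any vehicle array, as were 45.8% of the tested miRNAs. Unscaled sums of miR-30a were 50.7, 44.6 and 26.2 on vehicle 1 to 3 and 585, 363 and 449 on thioacetamide 1 to 3. Those of miR-30e were 75.2, 80.0 and 65.1 against 318, 146 and 158. Those of miR-30c were 26.3, 123 and 115 against 383, 133 and 186. The high value on thioacetamide 1 for all of these came with that array's scale factor of 2.27, beside 0.626 to 1.25 on the other 5. The 12 probes that set the scale belong to 8 miRNAs and include none of the members.

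The choice of scale moved the changes, by unequal amounts among the members. The median over the 59 tested miRNAs was 0.97 without scaling and 1.16 with the labelling spike-in as the scale. It was 0.02 with quantile normalisation and 0.03 when arrays were scaled by the median of the 8 miRNAs detected everywhere. Under these 4 alternatives the change of miR-30a was 3.31, 3.44, 1.26 and 2.26, and it passed the limma test in each. miR-30d passed in each as well, with changes of 3.30, 3.41, 1.55 and 2.17. miR-30b-5p, which did not pass in the reported fit, passed in each of the 4, with changes of 2.72, 2.83, 1.55 and 1.62. miR-30e and miR-30c passed in none of them, and their changes stayed above 0 there, while normexp put miR-30e at -0.02 and miR-30c at 0.01.

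A scale between arrays drops out when members are set against each other on the same array. The log2 ratio of the miR-30a signal to the miR-30e signal was -0.57, -0.84 and -1.31 on vehicle 1 to 3 and 0.88, 1.31 and 1.51 on thioacetamide 1 to 3. The ratio was below 0 on every vehicle array and above 0 on every treated array. The mean was -0.91 in vehicle and 1.23 in thioacetamide plasma, a difference of 2.14 ± 0.29 (SE; exact two-sided permutation test, p = 0.1, adjusted over the 10 member pairs p = 0.25). With 3 arrays against 3 the smallest p this test can give is 0.1, so no pair could pass. The difference was 0.98 with normexp, and the groups did not overlap. With a floor 4 times as high it was 0.92. That floor acts on scaled signals, so the scale enters again, and it set the ratio to 0 on every vehicle array. The lack of overlap there says only that miR-30a stood above the floor and above miR-30e on the treated arrays.

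The ratio of miR-30d to miR-30e was -0.30, 0.10 and -0.11 on vehicle 1 to 3 and 1.03, 2.03 and 2.31 on thioacetamide 1 to 3, a difference of 1.89 ± 0.41 (SE). The groups did not overlap. The ratios of miR-30b-5p to miR-30e (difference 1.34 ± 0.55) and to miR-30c (1.19 ± 0.36) did not overlap between groups either, so 4 of the 10 pairs were separated, each at the smallest possible p of the exact permutation test, 0.1. Without vehicle 1 the difference between miR-30b-5p and miR-30e was 0.83. These are the pairs that set a member with a large change against one with a small change, apart from 2 that involve miR-30c, where vehicle 1 lay among the treated arrays. miR-30a against miR-30c differed by 1.99 ± 0.97 and miR-30c against miR-30d by -1.74 ± 0.80 (exact permutation p = 0.2 for both).

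Within the group of larger changes the ratios overlapped. miR-30a against miR-30d differed by 0.25 ± 0.35 (SE, exact permutation p = 0.5). miR-30a against miR-30b-5p differed by 0.80 ± 0.73 (exact permutation p = 0.4). miR-30b-5p against miR-30d differed by -0.55 ± 0.50 (exact permutation p = 0.3). Between the members with small changes the ratios overlapped as well, and miR-30c against miR-30e differed by 0.15 ± 0.76 (exact permutation p = 1). Without vehicle 1 this last difference was -0.59. The sign of the miR-30a to miR-30d difference also depended on the setting. It was -0.27 with normexp and -0.56 with the higher floor, which set the ratio to 0 on every vehicle array. These errors are wide, and a p above the threshold does not show that the members changed alike.

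**Figure D3:**
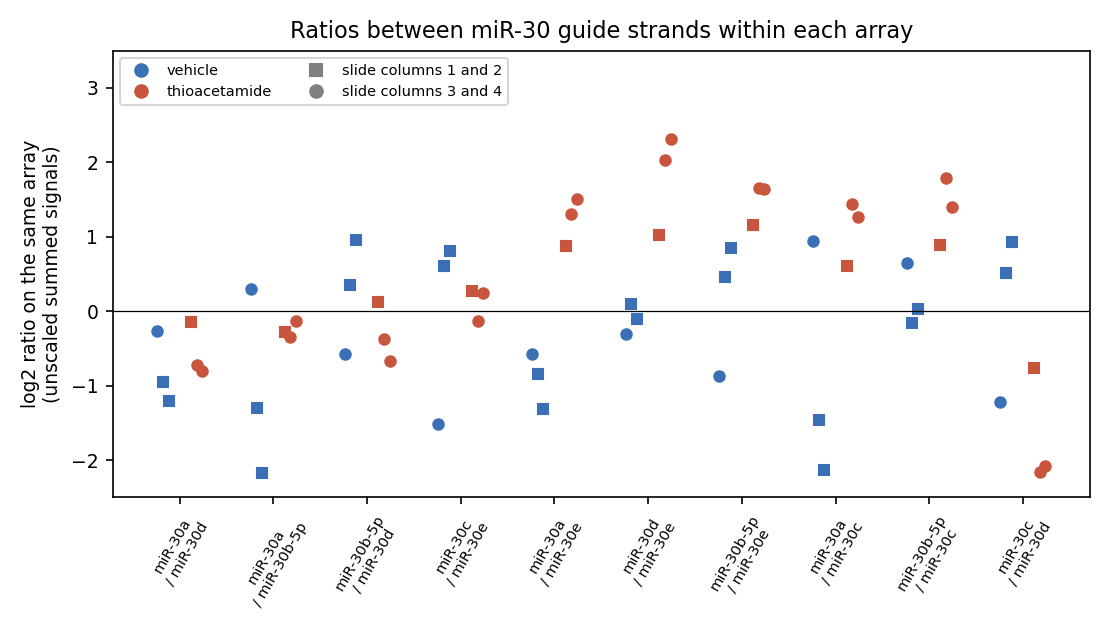
Log2 ratio of the unscaled signals of 2 miR-30 guide strands on the same array, for all 10 pairs, 1 point per array, blue for vehicle and red for thioacetamide, with squares for slide columns 1 and 2 and circles for columns 3 and 4. The red points lie above all blue points for miR-30a, miR-30d and miR-30b-5p over miR-30e and for miR-30b-5p over miR-30c.

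Changes were also computed within each side of the slide. Within columns 1 and 2, where 1 treated array stands against 2 vehicle arrays, the log2 changes were 2.32 for miR-30a, 1.46 for miR-30d, 0.93 for miR-30b-5p, 0.43 for miR-30e and -0.01 for miR-30c. Within columns 3 and 4, where 2 treated arrays stand against 1 vehicle array, they were 2.92, 3.41, 3.39, 0.94 and 1.80. With a lone array in 1 group on each side, these are given as values, and whether they differed between the sides was not tested.

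The changes of miR-30a and miR-30e were closer between the sides than those of miR-30d, miR-30b-5p and miR-30c. The difference in the ratio of miR-30a to miR-30e was 1.96 on columns 1 and 2 and 1.98 on columns 3 and 4. That of miR-30d to miR-30e was 1.03 on the one and 2.47 on the other, and that of miR-30b-5p to miR-30e 0.50 and 2.53.

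The 2 probes of a member are aimed at the same RNA. For miR-30d the longer probe was 1.33 to 1.44 times as bright as the shorter on all 6 arrays, and both probes gave the same change, 2.52 and 2.56. For miR-30e the ratio was 2.90 to 4.05 on columns 1 and 2 and 4.21 to 5.20 on columns 3 and 4, and the probes gave 0.64 and 0.66. The shorter miR-30e probe, which gave 0.64, was well above background on no array, and its scaled groups overlapped. These probe changes are on scaled signals without the floor.

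The probe ratios of miR-30b-5p and miR-30c differed more between the sides of the slide than that of miR-30e. For miR-30b-5p the longer probe was 6.56 to 7.07 times as bright as the shorter on columns 3 and 4, against 1.86 and 1.91 on the vehicle arrays of columns 1 and 2 and 3.40 on thioacetamide 1. For miR-30c it was 4.71 to 6.09 times as bright on columns 3 and 4 and 1.41 to 2.00 times on columns 1 and 2. Both ratios split by the side of the slide, and on columns 1 and 2 the treated array had the higher ratio. The cause was not tested.

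The shorter probe of miR-30c read higher on the vehicle arrays of columns 1 and 2 than on vehicle 1. This 17-base probe read 3.70 on vehicle 1, 50.9 on vehicle 2 and 46.2 on vehicle 3, and 128, 23.3 and 31.7 on thioacetamide 1 to 3, unscaled. It was the 1 member probe of 10 whose unscaled groups overlapped, and it was well above background on no array. The 2 probes of miR-30b-5p gave changes of 1.28 and 2.21, and those of miR-30c 0.39 and 1.01, shorter first.

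For miR-30a the shorter probe was below 0 on vehicle 2 (-0.63) and vehicle 3 (-2.77), at 8.30 on vehicle 1, and at 109, 83.9 and 107 on thioacetamide 1 to 3, unscaled. The treated arrays stood clear of the vehicle arrays, but no ratio of the probes exists for vehicle 2 and vehicle 3. The longer probe read 42.4, 45.3 and 29.0 on vehicle 1 to 3 and 476, 279 and 343 on thioacetamide 1 to 3, a change of 2.47 after scaling. Taken alone through the fit, an alternative added after seeing the data, the longer probe gave 2.46 (limma, adjusted p = 0.00462). The shorter alone gave 0.73 (limma, adjusted p = 0.215), with the floor in place.

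**Figure D4:**
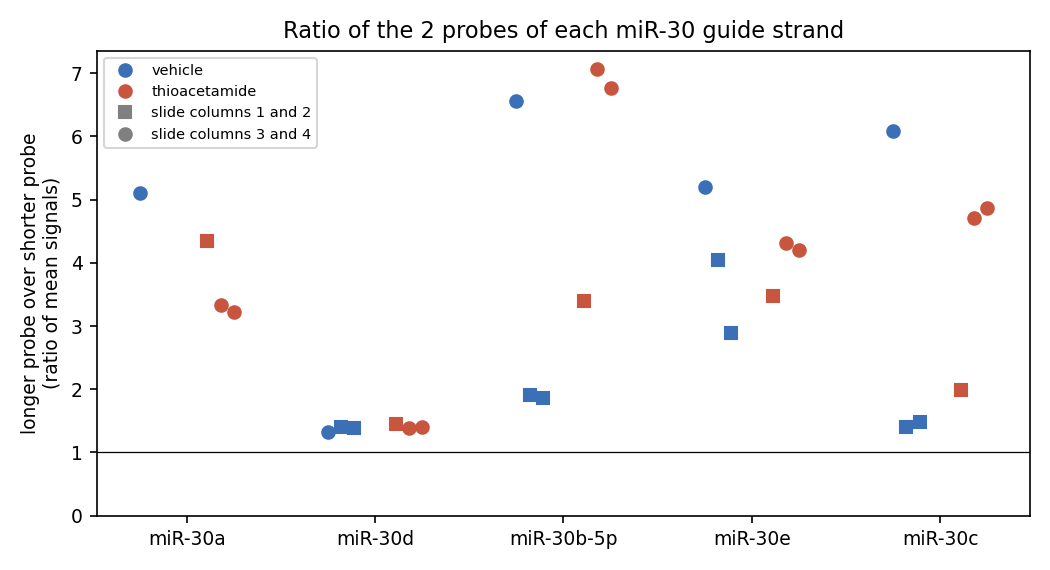
Ratio of the longer to the shorter probe's mean signal for each miR-30 guide strand, 1 point per array, blue for vehicle and red for thioacetamide, with squares for slide columns 1 and 2 and circles for columns 3 and 4; the line marks a ratio of 1. miR-30d stays at 1.33 to 1.44, while miR-30b-5p and miR-30c fall into 2 sets by side of the slide. The miR-30e points also split by side, more narrowly (up to 4.05 against 4.21 and above), and miR-30a has no ratio on vehicle 2 and vehicle 3.

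The passenger strands miR-30a*, miR-30b-3p, miR-30c-1*, miR-30c-2*, miR-30d* and miR-30e* were detected on none of the 6 arrays, and nor was miR-384-5p, the other miRNA with the family's seed, so none of these 7 was tested. Unscaled sums of miR-30a* were 3.21, -9.67 and -23.9 on vehicle 1 to 3 and -16.4, 37.8 and 59.4 on thioacetamide 1 to 3. The last of these was the 1 array on which the scanner software's own gene call, which differs from the rule used here, called it detected. miR-30e* read 15.9 and 20.7 on thioacetamide 2 and thioacetamide 3 against 0.44 on vehicle 1, the vehicle array of the same side. miR-384-5p was below 0 on all 6 arrays. These signals did not meet the detection rule, and whether the passenger strands changed was not tested.

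Pearson's r between the members' levels over the 6 arrays ran from 0.38 (miR-30a with miR-30c) to 0.97 (miR-30a with miR-30d). The lower values were those of miR-30c, with 0.52 to miR-30d and 0.66 to miR-30e, beside 0.81 to miR-30b-5p. These r describe 6 arrays that share the treatment, the scale and the side of the slide. Of the other tested miRNAs, the 5 whose log2 profiles were most like the mean profile of the members, by Pearson's r over the 6 arrays, were miR-122* (0.987), miR-27b (0.971), miR-192 (0.969), miR-29a (0.965) and miR-193 (0.923). The least like it was miR-451 (-0.955), an erythrocyte miRNA.

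Markers of other sources moved in the same samples. Of 5 tested miRNAs of a list for liver, 4 passed as higher (median change 4.23), among them miR-122, the defining hepatocyte miRNA, at 8.10 ± 0.61 (SE; limma, adjusted p = 0.000406). The list's summed scaled signal was 412 to 483 on the vehicle arrays and 13168 to 42141 on the treated arrays. Of 7 tested erythrocyte miRNAs, 1 passed as lower and 0 as higher (median change -0.81), with summed scaled signals of 10673 to 13736 against 6313 to 6596. Among these erythrocyte miRNAs, miR-92a and miR-451, and also miR-25 and miR-16, belong to the 8 whose probes set the scale. Without scaling, and with the labelling spike-in as the scale, 0 of the 59 tested miRNAs passed as lower (limma). The lower call therefore depends on the scale, which is set in part by miRNAs of the same list. None of the 3 tested leukocyte and 4 tested platelet and endothelial miRNAs passed (limma, with 0 and 3 at an unadjusted p under 0.05). Those 3 went both ways, with miR-24 (1.91) and miR-26a (2.02) higher and miR-27a (-0.88) lower. Of all tested miRNAs, 27.1% were higher at that unadjusted p. miR-223 is in both lists. The part of these sources in the members' changes was not tested.

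Kidney and gut epithelium also contain miR-30 guides. None of the 6 miRNAs on the array from that list met the filter for testing, and their summed scaled signal was 60.9 to 118 on the vehicle arrays and 200.04 to 270.2 on the treated arrays. The groups did not overlap. Which miRNAs of the list carried this sum, and whether it came from those tissues, was not tested.

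For comparison, other families were taken from the same fit. Of the let-7 guides 3 of 7 were tested and 0 passed (limma, with 0 at an unadjusted p under 0.05), with changes from -0.83 to 1.44, and all 3 had overlapping groups. Of miR-23a, miR-23b, miR-27a, miR-27b and miR-24, 4 were tested and 1 passed, miR-27b at 1.84 (limma, adjusted p = 0.0353), while miR-27a was at -0.88. In the miR-29 family 1 of 3 guides was tested and passed, miR-29a at 2.11 ± 0.35 (SE; limma, adjusted p = 0.00760). Whether the miR-30 guides differ from these families was not tested.

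The 5 members together made up 1.38%, 2.10% and 2.79% of the summed signal of the tested miRNAs on vehicle 1 to 3 and 3.79%, 3.27% and 2.31% on thioacetamide 1 to 3. The groups overlapped, since vehicle 3 was above thioacetamide 3.

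**Figure D5:**
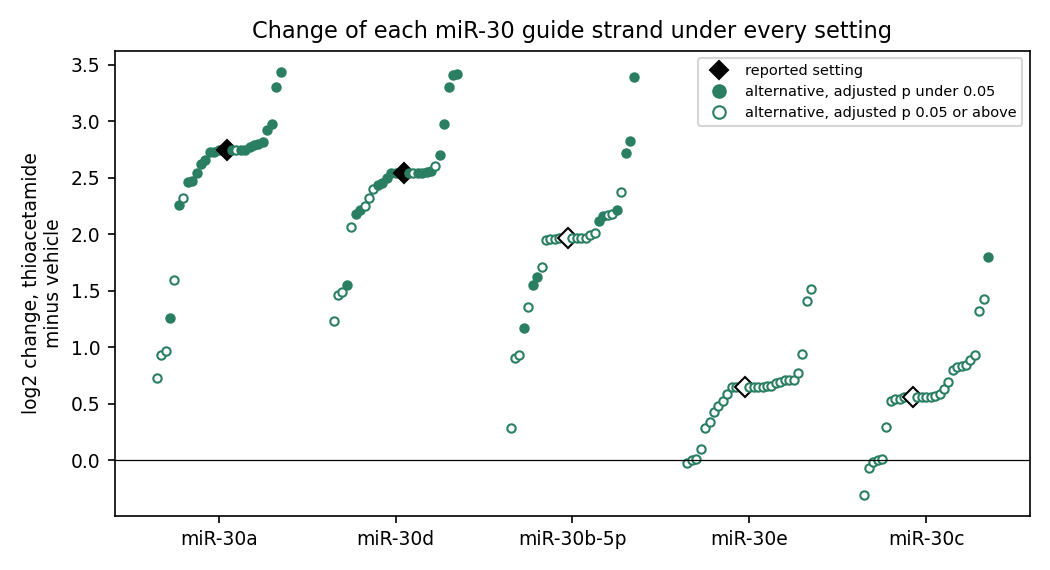
Log2 change (thioacetamide minus vehicle) of each miR-30 guide strand in the reported setting (diamond) and in 28 alternatives (circles), sorted by value within each miRNA. Filled symbols have a limma adjusted p under 0.05. Among the alternatives, the deposited value table and the scale without member probes gave the reported calls again. miR-30a and miR-30d stay above 0 throughout, with 22 and 19 of the 28 filled, and miR-30e has none filled.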

How the data were processed

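Per the submitters' processing notes, the authors read the scans with Agilent Feature Extraction 10.7.3.1. Their deposited intensity values are linear, have the background subtracted within each array and are not scaled between arrays. The deposited value table equals the scanner files' processed signal to within 0.005. Of 13540 miRNA spots per array (1644 probes, 677 miRNAs), those with outlier marks, 2126 over all arrays, and 715 control spots per array were left out. Spots were averaged per probe, and probes were summed per miRNA. The 12 probes detected on all 6 arrays gave the scale factor of each array, their 75th percentile. Scaled sums below 46.1, which is the 5th percentile among detected miRNAs, were set to 46.1 before taking log2.

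The 59 miRNAs detected on at least 3 of 6 arrays were fitted by lmFit and eBayes of limma 3.58.1 (R 4.3.3) with treatment as the only term, and the code was tested on simulated data. Ratios between members were compared with exact permutation tests. Body weights in the labels differ for every array, and arrays were treated as separate animals. Their number limits the precision. All 5 members, the other products of their precursors, miRNAs of the same seed and the tested miRNAs with the most similar profiles are described by name. Alternatives covered scaling, background, floor, probes, spots, filter, slide side, replicate number and each array left out. The miR-30 family and the marker lists were picked for description with earlier results of these data known, and the members were then taken by name.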

Additional observations from a re-analysis of the deposited data

How the results depend on the processing

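miR-30a kept an adjusted p under 0.05 (limma) in 22 of 28 alternatives (change 0.73 to 3.44), miR-30d in 19 (1.24 to 3.41), miR-30b-5p gained it in 9 (0.28 to 3.39), miR-30c in 1 (-0.30 to 1.80) and miR-30e in 0 (-0.02 to 1.51). The 28 include the scale without member probes, which drops no probe, and the deposited value table, whose signals are the same to within 0.005. Both gave the reported calls again. Percentages here are the tested miRNAs called higher. The number of members called, 2 as reported (15.3%), was 0 with the percentile over all probes (5.08%), with normexp (8.47%) and without a filter (677 miRNAs tested, 0.295%). It was 1 with the floor raised to 4 times its value (miR-30b-5p, not among the 2, 11.9%) or the shorter probes alone (miR-30d, 13.6%). It was 3, with miR-30b-5p added, without scaling (37.3%) and with spike-in (33.9%), quantile (13.6%) or median scaling (20.3%). The same 3 were called with the brightest probe (23.7%), the longer probe (18.6%) and the side as a block (20.3%). Leaving out 1 array gave 1 to 2 (8.47% to 42.4%). Fits on 1 side of the slide, where a lone array is taken to vary like the others, are among the 28 but left out of these member counts. The change of miR-30c went below 0 on columns 1 and 2 (-0.0122) and with its shorter probe (-0.30), and that of miR-30e with normexp (-0.0199). With 1 array left out, miR-30c ranged from -0.0624 (without vehicle 1) to 0.933. The difference between miR-30a and miR-30b-5p turned to -0.243 with the higher floor and to -0.545 on columns 3 and 4, and that between miR-30b-5p and miR-30d to 0.0542 on columns 3 and 4. That between miR-30a and miR-30d (0.25 as reported) was -0.271 with normexp, -0.555 with the higher floor, -0.0917 with the brightest or longer probe and -0.491 on columns 3 and 4. That between miR-30c and miR-30e (0.154) was -0.590 without vehicle 1, -0.445 on columns 1 and 2 and -0.0111 with the higher floor. Separated pairs, 4 as reported, were 4 to 10 with 1 array left out. They were 8 with the higher floor, which held all vehicle ratios between -0.028 and 0.028, so that count was largely fixed by the floor. The causes were not tested. A filter for detection on all arrays left no member to test. Signal over background on the vehicle arrays, where each member was detected once, limits every fold.

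With the replicate number as a block, 2 members were called, miR-30a at an adjusted p of 0.0235 and miR-30d at 0.0241 (limma). Arrays with the same number did not deviate together (correlations -0.70, -0.31 and -0.66), so the pairing is by number only.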
